A study of Drosophila melanogaster with 6 samples.

Results

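The genes described here encode the proteins that pack DNA in the fly sperm nucleus and build the sperm tail: the protamine-like genes Mst35Ba and Mst35Bb, the linker-histone-like gene Mst77F, the transition protein gene Tpl94D, the sperm tail genes Mst84Da, Mst84Db, Mst87F, Mst98Ca and Mst98Cb, and don juan (dj). They were chosen by name, and all 10 were found among the 17807 genes of the deposited count table. Of these, 8 carried the names above, and 2 were listed as ProtA (Mst35Ba) and ProtB (Mst35Bb), which were matched through RefSeq synonyms. Expression was measured in brains of Drosophila melanogaster pupae 24 h after puparium formation by strand-specific sequencing of poly(A) RNA. There were 2 genotypes with 3 libraries each. TetAXXC flies carry an edited CXXC zinc-finger domain of Tet, which encodes a dioxygenase that oxidises methylated bases, made by CRISPR/Cas9 cutting and homology-directed repair in a nos-Cas9 stock, with the DsRed marker then excised. The wild-type (WT) stock is named by the labels only as wild type, and the sex of the pupae was not given. Per the labels 30 brains were taken per genotype and the replicates were independent, but it was not clear whether that number holds for each library.

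Spermatids discard most of their histones as the nucleus condenses. Transition proteins such as Tpl94D occupy the DNA for a short time, and the protamine-like proteins ProtA and ProtB together with Mst77F then take over. Mst84D, Mst87F and Mst98C proteins belong to the Mst(3)CGP family, named for repeats of cysteine, glycine and proline, and lie along the sperm tail, as does the Don juan protein. Most of these genes are transcribed in spermatocytes, and their messages are stored and translated only later in spermatids. They are known as testis genes, and a role for them in the brain is not part of this background.

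The libraries held 17861742 to 19521285 gene counts. Levels are given as CPM, counts per 1000000 gene counts after TMM scaling. The Tet gene had 790 ± 95.7 CPM (SD) in the 3 WT libraries against 865 ± 72.1 CPM in the 3 mutant ones (log2 fold change 0.13, edgeR adjusted p 0.499), and counts per gene do not resolve the edited domain. All 8 neuronal markers examined, such as nSyb and VGlut, averaged at least 39.3 CPM in WT, and their summed level lay between 3153 and 3744 CPM in every library. Replicate 1 of each genotype stood apart for the sperm genes, with the highest summed level of its group, so the fold changes of the 10 genes are also given without those libraries. RNA was taken from whole brains, in which more cells of a type and more RNA per cell cannot be told apart.

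All 10 sperm genes were low in WT brains, at 0.579 to 3.10 CPM on average, and rose in TetAXXC brains. Summed over the 10 genes, replicates 1, 2 and 3 held 515, 151 and 107 counts for WT, against 6891, 2343 and 2523 for TetAXXC. For every gene the lowest TetAXXC library lay above the highest WT library, by 2.82 times for ProtA up to 6.42 times for ProtB. Such a separation was found in 20.4% of the 11198 genes tested. The fitted changes lay between 11.5-fold for Mst87F and 22.1-fold for ProtB.

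ProtA (FBgn0013300) lies on chromosome 2L from 14879050 to 14881652 on the minus strand of Release 6, with 3 exons in each of its 2 annotated transcripts. It had 38, 9 and 3 counts for WT, in the order of the replicate numbers used throughout, against 320, 112 and 171 for TetAXXC. WT replicate 3 was close to empty for this gene, while every TetAXXC library held more than any WT library. Mean CPM was 0.890 ± 0.983 for WT against 10.6 ± 5.65 for TetAXXC (SD, n = 3 each here and below), and the log2 fold change was 3.55 (standard error 0.80, edgeR adjusted p 0.0287).

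ProtB (FBgn0013301, chromosome 2L, 14882101 to 14883721) is the second protamine-like gene and lies upstream of ProtA on the same strand, across a gap of 448 bp. It had 12, 14 and 6 counts for WT against 486, 171 and 90 for TetAXXC. Unlike the other genes it was not highest in WT replicate 1, and TetAXXC replicate 3 was its lowest TetAXXC library. It averaged 0.579 ± 0.216 CPM for WT against 13.0 ± 10.9 for TetAXXC, and its log2 fold change was 4.47 (standard error 0.72, edgeR adjusted p 0.0167), the largest of the 10. The 2 genes are close copies, so reads could have been divided between them or dropped. Summed as 1 gene (a choice made after seeing the data) they had 50, 23 and 9 counts for WT against 806, 283 and 261 for TetAXXC, and a log2 fold change of 3.99 (edgeR adjusted p 0.0172).

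Mst77F (FBgn0086915, chromosome 3L, 20816901 to 20818027, minus strand) shapes and condenses the sperm nucleus and was the most counted of the 10. It had 120, 29 and 24 counts for WT against 1970, 669 and 715 for TetAXXC. The 2 lower WT libraries and the 2 lower TetAXXC libraries lay close together, with replicate 1 well above each. It averaged 3.10 ± 2.82 CPM for WT against 58.6 ± 38.6 for TetAXXC, and its log2 fold change was 4.22 (standard error 0.69, edgeR adjusted p 0.0170). Mst77F lies inside the span of Pka-R1, a protein kinase A subunit gene on the opposite strand, without sharing exon sequence. Pka-R1 averaged 207 ± 4.34 CPM for WT against 198 ± 4.87 for TetAXXC and did not pass the threshold (log2 fold change -0.06, edgeR adjusted p 0.324).

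Mst77F has copies on the Y chromosome, the Mst77Y genes, of which the table lists 6. The counts were 1, 0 and 0 for WT against 10, 8 and 6 for TetAXXC for Mst77Y-4. For Mst77Y-7 they were 2, 0 and 0 for WT against 13, 8 and 12 for TetAXXC. Mst77Y-16Psi, named as a pseudogene and listed on a scaffold outside the main chromosomes, had 0 counts in all WT libraries and 13, 6 and 10 in TetAXXC. The other 3 copies had no count in any library. None of the copies had enough counts to be tested. Reads that match both could have been assigned to either or dropped.

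Tpl94D (FBgn0051281, chromosome 3R, 22966284 to 22967842, plus strand) encodes an HMG-box protein that is present during the histone-to-protamine transition. It had 37, 8 and 6 counts for WT against 571, 179 and 211 for TetAXXC. Mean CPM was 0.911 ± 0.907 for WT against 16.8 ± 11.4 for TetAXXC, and the log2 fold change was 4.18 (standard error 0.76, edgeR adjusted p 0.0186). The groups did not overlap, and replicate 1 was the highest of each.

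**Figure D1:**
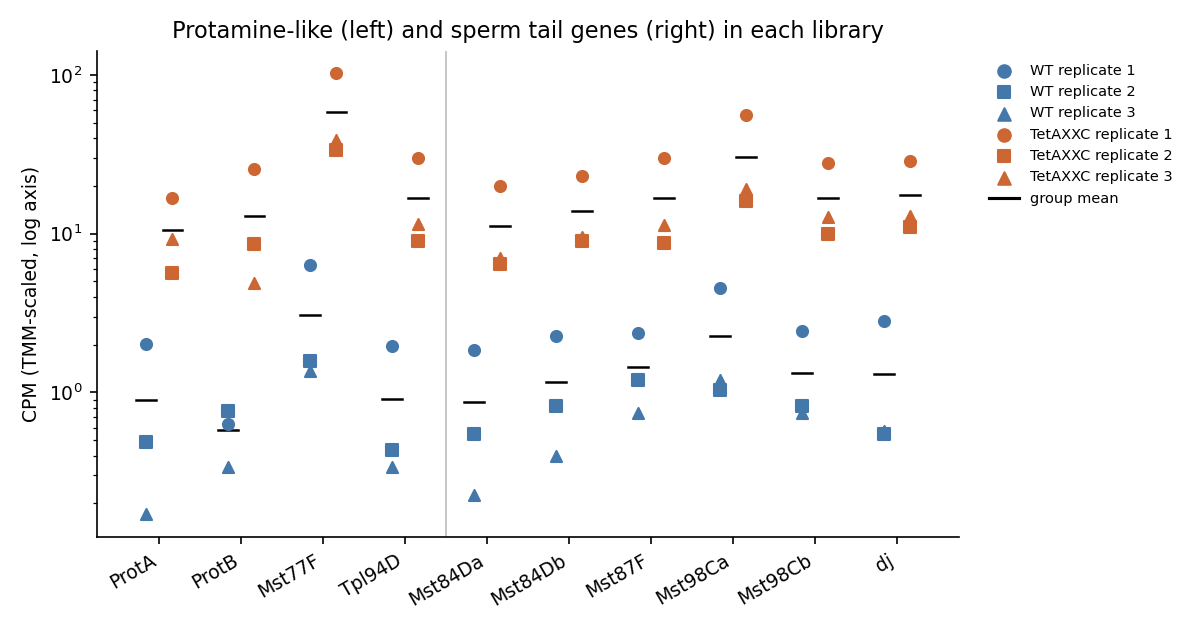
Level of each of the 10 genes in each library, in CPM scaled by TMM factors, on a log axis. Colours give the genotype, marker shapes the replicate number, and black bars the group means; all TetAXXC libraries lie above all WT libraries for each gene, and replicate 1 is the highest TetAXXC library throughout.

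The sperm tail genes rose by similar amounts, from 11.5-fold to 13.3-fold. Mst84Da (FBgn0004172, chromosome 3R, 7365850 to 7366262, plus strand) and Mst84Db (FBgn0004173, 7365160 to 7365627, minus strand) are divergent neighbours separated by 222 bp. Mst84Da had 35, 10 and 4 counts for WT against 381, 128 and 129 for TetAXXC. Mst84Db had 43, 15 and 7 counts for WT against 444, 179 and 176 for TetAXXC. In both genes TetAXXC replicates 2 and 3 were nearly equal and lay above WT replicate 1. Their log2 fold changes were 3.65 (standard error 0.78) and 3.57 (standard error 0.66), with edgeR adjusted p of 0.0250 and 0.0189. Exons of MstProx on the opposite strand cover 75.1% of the exon sequence of Mst84Da. MstProx had 0, 0 and 2 counts for WT against 25, 7 and 9 for TetAXXC, far fewer than Mst84Da, and was not tested.

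Mst87F (FBgn0002862, chromosome 3R, 13827151 to 13828008, minus strand) had 45, 22 and 13 counts for WT against 574, 173 and 209 for TetAXXC. It had the smallest change of the 10, its log2 fold change being 3.53 (standard error 0.62, edgeR adjusted p 0.0176). WT averaged 1.44 ± 0.847 CPM against 16.7 ± 11.6 for TetAXXC. The gene shares 41 bp of exon with lncRNA:CR43300 on the opposite strand, which had 5 counts in TetAXXC replicate 1 and none elsewhere.

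Mst98Ca (FBgn0002865, chromosome 3R, 28291338 to 28292656) and Mst98Cb (FBgn0004171, 28292798 to 28293863) are tandem genes of 1 exon each on the plus strand, 141 bp apart. Mst98Ca had 86, 19 and 21 counts for WT against 1062, 317 and 350 for TetAXXC, the highest counts among the tail genes. Mst98Cb had 46, 15 and 13 counts for WT against 535, 197 and 234 for TetAXXC. The log2 fold changes of 3.73 (standard error 0.72) and 3.65 (standard error 0.59) had edgeR adjusted p of 0.0195 and 0.0170. In both genes WT replicates 2 and 3 were alike, and the lowest TetAXXC library lay above WT replicate 1.

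The dj gene (FBgn0019828, chromosome 3R, 7059315 to 7060524, plus strand) had 53, 10 and 10 counts for WT against 548, 218 and 238 for TetAXXC. It averaged 1.31 ± 1.30 CPM for WT against 17.6 ± 9.68 for TetAXXC, and its log2 fold change was 3.73 (standard error 0.70, edgeR adjusted p 0.0190). WT replicate 1 held more than the other WT libraries together and still lay below every TetAXXC library.

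With edgeR's quasi-likelihood test over all 11198 genes tested, all 10 genes passed an adjusted p of 0.05, all of them higher in TetAXXC. In the same test 15.2% of all genes passed in either direction, and 12.1% passed as higher. The median log2 fold change of the 10 genes was 3.69, whereas that of all genes tested was 0.0041. All 10 passed the filter on low counts, but only 5 of them (Mst77F, Mst87F, Mst98Ca, Mst98Cb and dj) would have passed on the WT libraries alone. The others entered the test through their TetAXXC counts, so the number called among them is a description.

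Whether the genes passed depended on the tool and on single WT libraries. Under limma-voom 0 of the 10 genes passed, with adjusted p from 0.130 to 0.236, although 9 had an unadjusted p under 0.05, as did 24.5% of all genes. Without WT replicate 2 or WT replicate 3, 0 genes passed in edgeR, with adjusted p from 0.0816 to 0.116 and from 0.0683 to 0.0765, while all 10 had an unadjusted p under 0.05 in both. In these fits 54 and 104 of all genes passed, and 23.2% and 26.3% of all genes had an unadjusted p under 0.05. Without TetAXXC replicate 1 ProtA did not pass (adjusted p 0.0577), and without TetAXXC replicate 3 ProtA and Mst84Da did not (0.0703 and 0.0503). All 10 passed without WT replicate 1 and without TetAXXC replicate 2. They also passed when replicate 1 of both groups was left out, an alternative chosen after seeing the data, with edgeR adjusted p from 2.88e-04 to 0.00691.

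The size of the changes moved with replicate 1. Without WT replicate 1 the log2 fold changes lay between 4.09 and 5.41, and without TetAXXC replicate 1 between 2.79 and 3.54. Without both they lay between 3.36 and 4.70, against 3.53 to 4.47 with all libraries. The plot of fold changes shows the estimates with 1 library left out, gene by gene.

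**Figure D2:**
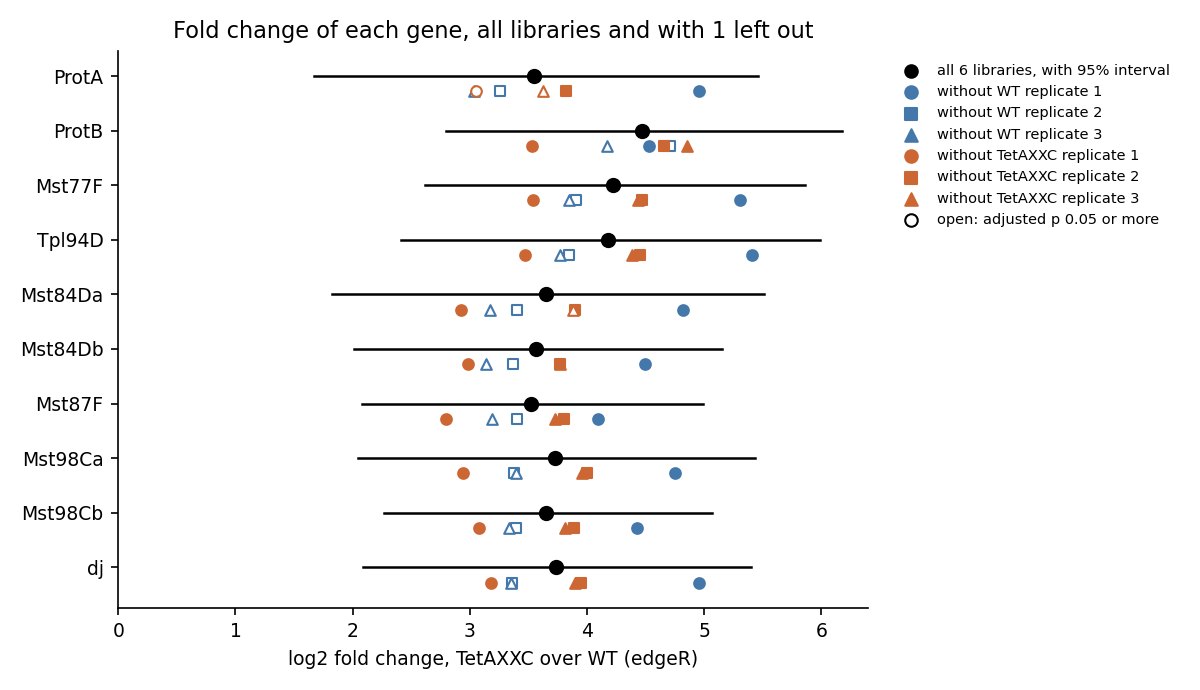
Log2 fold change of each gene, TetAXXC over WT. Black points and bars give the edgeR estimate and its 95% interval from all 6 libraries. The coloured markers below them give the estimate with 1 library left out, filled where the adjusted p is under 0.05. Every estimate is above 0, and those without WT replicate 2 or 3 are open. ProtA without TetAXXC replicate 1 or 3 and Mst84Da without TetAXXC replicate 3 are open as well.

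Levels were compared between genes after division by exon length. In TetAXXC, Mst77F was the highest at 55.0 CPM per kb, followed by Mst84Db at 33.6, Mst84Da at 31.1, Mst87F at 26.8 and Mst98Ca at 22.9 CPM per kb. ProtB at 19.1, Mst98Cb at 15.9, ProtA at 15.5, dj at 14.5 and Tpl94D at 11.3 CPM per kb made up the lower part. Among themselves the first 5, from Mst77F to Mst98Ca, kept this order in each of the 3 TetAXXC libraries. In replicate 2, however, ProtB at 12.7 CPM per kb lay above Mst98Ca at 12.2. The spread between the TetAXXC libraries was near or above the distance between neighbours. The standard deviation was 36.2 CPM per kb for Mst77F and 19.4 for Mst84Db. In WT the 10 genes lay between 0.611 CPM per kb for Tpl94D and 2.91 CPM per kb for Mst77F. Among all genes with a level above 0 this placed them at percentiles 32.1 to 45.6 in WT and 62.3 to 91.3 in TetAXXC.

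The order of the replicates was alike over most of the 10 genes. In TetAXXC all 10 were highest in replicate 1, at 2.57 to 3.47 times the CPM of replicate 2. In WT 9 were highest in replicate 1, and 8 were lowest in replicate 3. Apart from ProtA and ProtB, the other 8 genes were at 1.06 to 1.30 times their replicate 2 level in TetAXXC replicate 3.

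Each gene's share of the summed counts of the 10 genes was compared between genotypes. Mst77F took 28.6%, 28.6% and 28.3% of them in TetAXXC replicates 1 to 3, and 23.3%, 19.2% and 22.4% in WT. The 95% Wilson interval was 27.5% to 29.7% in TetAXXC replicate 1. In WT replicates 1 to 3 it was 19.9% to 27.1%, 13.7% to 26.2% and 15.6% to 31.2%. That of WT replicate 3 held the shares of all TetAXXC libraries. Tpl94D also had a larger share in every TetAXXC library, at 8.10% ± 0.397 against 6.03% ± 1.01 in WT (SD, n = 3 each). Mst87F had a smaller one, at 8.00% ± 0.533 against 11.8% ± 2.93. The intervals of WT replicate 1, 5.26% to 9.75% for Tpl94D and 6.59% to 11.5% for Mst87F, held every TetAXXC share of these genes. For Mst77F, Tpl94D and Mst87F the shares themselves did not overlap between genotypes. The two-sided exact permutation p was 0.1 for each, the smallest that 3 against 3 libraries allow, with no adjustment over the 10 shares. The shares of the other 7 genes overlapped between genotypes. Shares of a library add up to the whole, so a larger share of any gene lowers those of others, and the differences are not independent. Intervals cover counting error only, because reads without molecular identifiers are not independent molecules.

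Within the neighbouring pairs, the balance varied far more between libraries for the protamine-like genes than for Mst84D and Mst98C. Mst84Db took 53.8% to 58.3% of the pair's counts in the TetAXXC libraries and 55.1% to 63.6% in WT. Mst98Cb took 33.5% to 40.1% in TetAXXC and 34.8% to 44.1% in WT. Its 95% Wilson intervals in TetAXXC replicate 1 (31.2% to 35.9%) and replicate 3 (36.2% to 44.1%) did not overlap. ProtB took 60.3% of the ProtA and ProtB counts in TetAXXC replicate 1 (95% Wilson interval 56.9% to 63.6%) and 60.4% in replicate 2 (54.6% to 65.9%), but 34.5% in replicate 3 (29.0% to 40.4%). In WT it took 24.0% in replicate 1 (14.3% to 37.4%), 60.9% in replicate 2 (40.8% to 77.8%) and 66.7% in replicate 3 (35.4% to 87.9%, of 9 counts). The interval of TetAXXC replicate 3 does not reach those of the other TetAXXC libraries. The difference between libraries does not follow genotype, and whether it arose in the flies or in the assignment of reads to close copies was not tested.

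**Figure D3:**
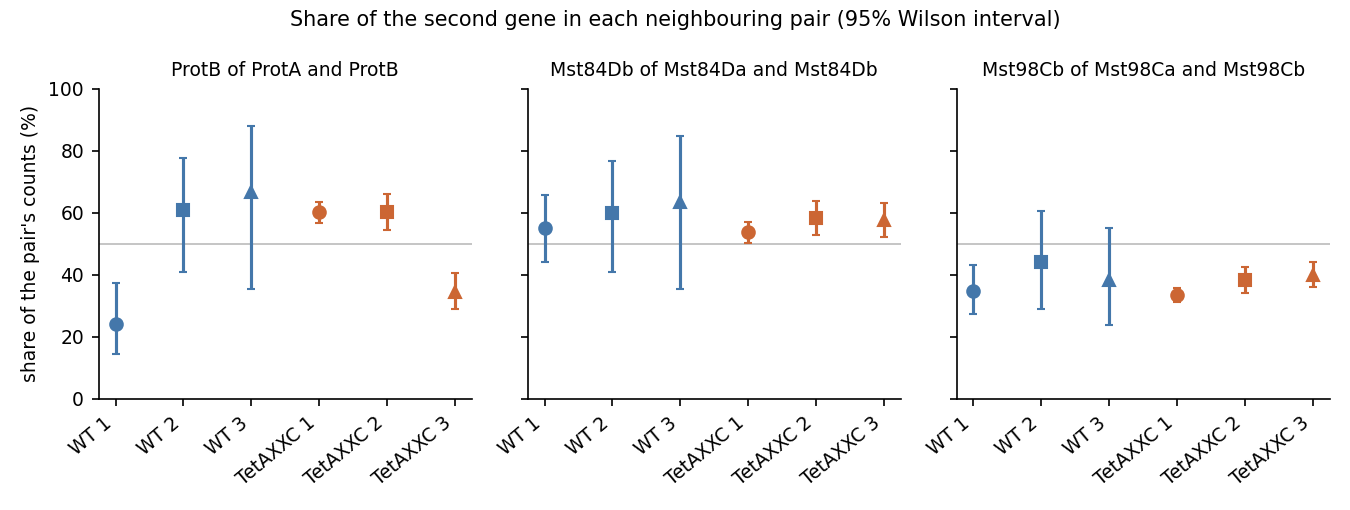
Share of the second gene in the summed counts of each neighbouring pair (per cent), by library, with 95% Wilson intervals. ProtB lies between 60.3% and 66.7% in 4 libraries but at 24.0% in WT replicate 1 and 34.5% in TetAXXC replicate 3, while Mst84Db lies between 53.8% and 58.3% and Mst98Cb between 33.5% and 40.1% in TetAXXC.

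Other genes of sperm chromatin and of the sperm tail were read from lists written with earlier results of these data known. In none of the sperm gene lists below did a gene pass under limma-voom or without WT replicate 2 or 3, as for the 10 genes. At an unadjusted p under 0.05, limma-voom called 6 of the 7 chromatin genes and 8 of the 8 tail genes on these lists, against 24.5% of all genes. Most of these chromatin and tail genes, like part of the 10 genes, entered the test through their TetAXXC counts, so the numbers called are a description. On the WT libraries alone, 0 of the 7 chromatin genes, 1 of the 8 tail genes, 4 of the 14 comet and cup genes and 1 of the 6 Y-linked genes tested would have passed the filter. In the other sperm gene lists more would have passed: all 8 aminopeptidases, 6 of 7 spermatocyte products, 4 of 5 spermatocyte regulators and 4 of 6 early germ cell genes. All 7 other sperm chromatin genes examined were higher in TetAXXC in the edgeR test, with a median log2 fold change of 3.32, but without TetAXXC replicate 1 only 2 of them passed, and without TetAXXC replicate 3 only 3. Prtl99C, a further protamine-like gene, had 23, 3 and 3 counts for WT against 238, 84 and 98 for TetAXXC, a log2 fold change of 3.80 (adjusted p 0.0262). The HMG-box genes tHMG1 and tHMG2 both had a log2 fold change of 3.83 (adjusted p 0.0348 and 0.0304). They are neighbouring copies, between which reads could have been divided. The smallest changes of this list were those of ddbt, whose product protects paternal telomeres, at 2.52, and of CG30356 at 2.37.

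All 8 other late spermatid and sperm tail genes examined were also higher, with a median log2 fold change of 3.73. The remaining genes of the Mst84D cluster, Mst84Dc and Mst84Dd, changed by 3.85 and 4.01 on the log2 scale (edgeR adjusted p 0.0170 and 0.0172). The don juan-like gene djl changed by 3.74 (adjusted p 0.0167), and ocn and janB, neighbours in a cluster of testis genes, by 4.24 and 3.72 (0.0173 and 0.0232). Mst36Fa, Mst36Fb and Mst89B changed less, by 2.82, 2.92 and 2.84.

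**Figure D4:**
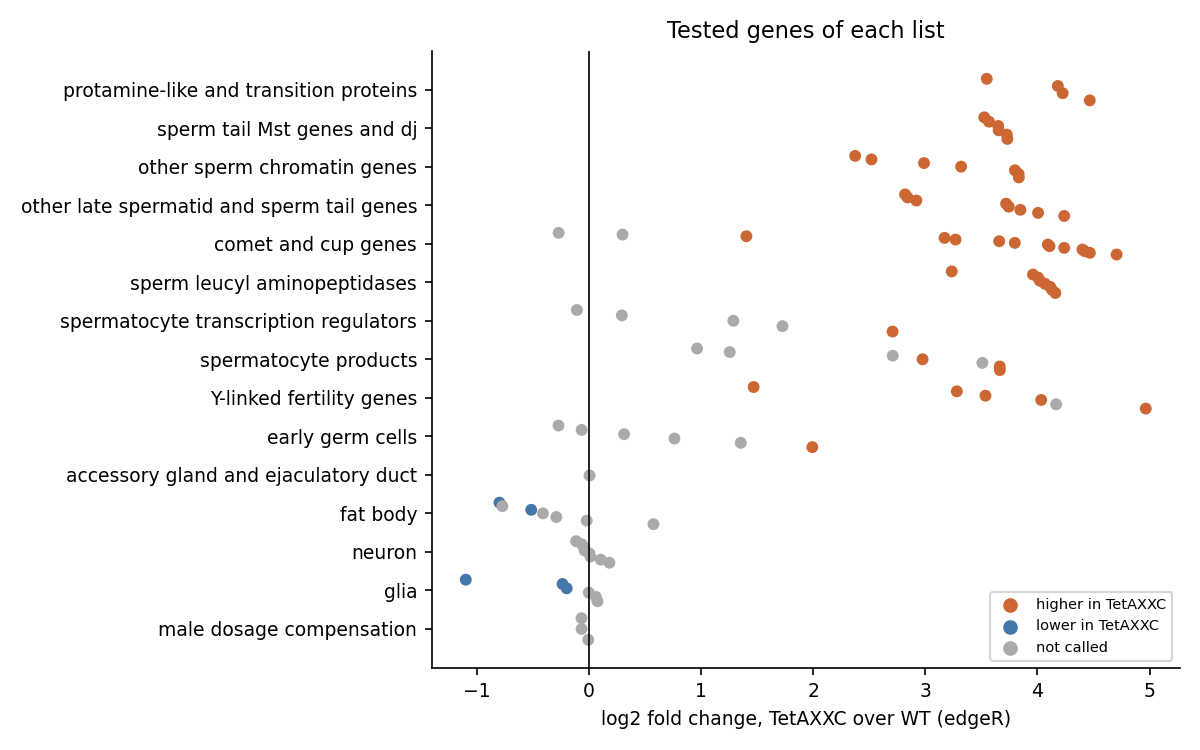
Log2 fold change (TetAXXC over WT, edgeR) of each tested gene, grouped by list, with colours for genes higher, lower or not called at an adjusted p of 0.05. The protamine-like and sperm tail genes lie between 3.53 and 4.47, beside the other late spermatid lists, while neuronal genes lie near 0.

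Genes known from other stages of sperm formation moved to different extents, and the number called depended on the test and the filter as well. Of 15 comet and cup genes, a group transcribed after meiosis, 14 were tested and 12 were higher, among them schuy (log2 fold change 4.24, edgeR adjusted p 0.0167). The exceptions were m-cup and s-cup, at 0.30 and -0.27 (adjusted p 0.158 and 0.724). With a replicate block m-cup also passed, at 0.29 (adjusted p 0.0198). Without TetAXXC replicate 1 or TetAXXC replicate 3, 7 comet and cup genes passed. All 8 sperm leucyl aminopeptidase genes, which encode abundant sperm proteins, were higher, with a median of 4.04. Among spermatocyte products 3 of 7 were higher: betaTub85D, the testis beta-tubulin, at 2.98, Cyt-c-d at 3.66 and Hsp60B at 3.66. With the block, without TetAXXC replicate 2, and under the DESeq2 Wald test, all 7 were higher. The products not called had log2 fold changes of 3.51 for fzo, 2.71 for blanks, 1.26 for twe and 0.96 for bol. Their edgeR adjusted p were 0.0644, 0.0587, 0.0681 and 0.0570. Among the regulators of spermatocyte transcription 5 of 11 matched genes had enough counts to be tested, and only kmg was higher, at 2.71 (adjusted p 0.0240). With the block 2 were higher, and under the DESeq2 Wald test 4 were. Without TetAXXC replicate 2, 7 of 10 tested were higher, and 0 were without any 1 of the other libraries. The regulators not called had log2 fold changes of 1.73 for can, 1.29 for vis, 0.29 for achi and -0.11 for mia. With no filter all 11 were tested. Of these, 10 had a log2 fold change above 0, with a median of 2.70, and 2 were called. With the stricter filter 0 of 3 tested were called. Of 12 Y-linked fertility genes 6 were tested and 5 were higher, including ARY at 4.97 (adjusted p 0.0167). With the block all 6 were higher, whereas 2 were without TetAXXC replicate 1 or TetAXXC replicate 3, and 3 of 9 tested were without WT replicate 1.

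Markers of other cells were read in the same way. Among early germ cell genes 1 of 6 tested was higher, bgcn at 1.99 (edgeR adjusted p 0.0393). It passed in 1 of the 6 fits with a library left out, that without TetAXXC replicate 2, and with the block ovo was also called, as lower at -0.28 (adjusted p 0.0125). The summed level of that list was 55.2 to 60.0 CPM in WT and 44.1 to 59.9 CPM in TetAXXC. Of that sum most came from ovo, at 50.7 ± 2.11 CPM for WT against 42.0 ± 4.37 for TetAXXC, while vas, a defining germ cell marker, had 9, 12 and 21 counts for WT against 54, 22 and 37 for TetAXXC. Of 14 matched genes of the accessory gland and ejaculatory duct, 11 had at most 3 counts in every library, 7 of these none at all, including the sex peptide gene SP. Their summed level was 1.04 to 1.53 CPM in WT and 2.15 to 2.56 CPM in TetAXXC, so the groups did not overlap. Most of the difference came from Acp53Ea, with 1, 6 and 2 counts for WT against 6, 27 and 18 for TetAXXC, and from Acp36DE, with 1, 1 and 1 against 5, 2 and 17. Neither had enough counts to be tested. Among fat body genes Fbp1 and Fbp2 were lower, by -0.51 and -0.80 on the log2 scale (adjusted p 0.0117 and 0.0293), and none was higher. Fbp1 passed in every fit with a library left out and under limma-voom, whereas Fbp2 passed in 1 of the 6 fits with a library left out, that without TetAXXC replicate 2, and in neither limma-voom (adjusted p 0.0836) nor the robust fit (0.0560). With the block 4 of 7 were lower. Of the 8 neuronal genes none passed the threshold, with log2 fold changes from -0.11 to 0.18. Of 6 glial genes alrm, moody and wrapper were lower, by -1.10, -0.24 and -0.20. The call of alrm held under limma-voom (adjusted p 0.00717) and with each library left out, while moody and wrapper did not pass under limma-voom (0.0516 and 0.0553) or without WT replicate 2 or 3.

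The roX RNAs, which males make for dosage compensation of the X chromosome, did not pass the threshold. They had log2 fold changes of -0.0060 for lncRNA:roX1 and -0.07 for lncRNA:roX2, with edgeR adjusted p of 0.995 and 0.931. lncRNA:roX1 had 15212, 12669 and 8057 counts for WT against 7170, 14419 and 15431 for TetAXXC, so the library with the most sperm gene counts, TetAXXC replicate 1, had the fewest. The summed aminopeptidases lay between 20.3 and 85.2 CPM in WT and between 401 and 1218 CPM in TetAXXC, the Y-linked genes between 1.53 and 3.07 CPM and between 8.90 and 25.7 CPM, and the spermatocyte products between 51.6 and 91.0 CPM and between 145 and 422 CPM. The spermatocyte regulators had 30.3 to 31.0 CPM in WT and 66.2, 35.5 and 49.6 CPM in TetAXXC replicates 1, 2 and 3. Their sum in replicate 2 was close to WT. In WT most of that sum came from achi, at 18.1, 19.9 and 20.4 CPM, against 25.5, 22.9 and 23.2 CPM for TetAXXC. The part of RNA from testis cells in the change of the 10 genes was not tested.

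**Figure D5:**
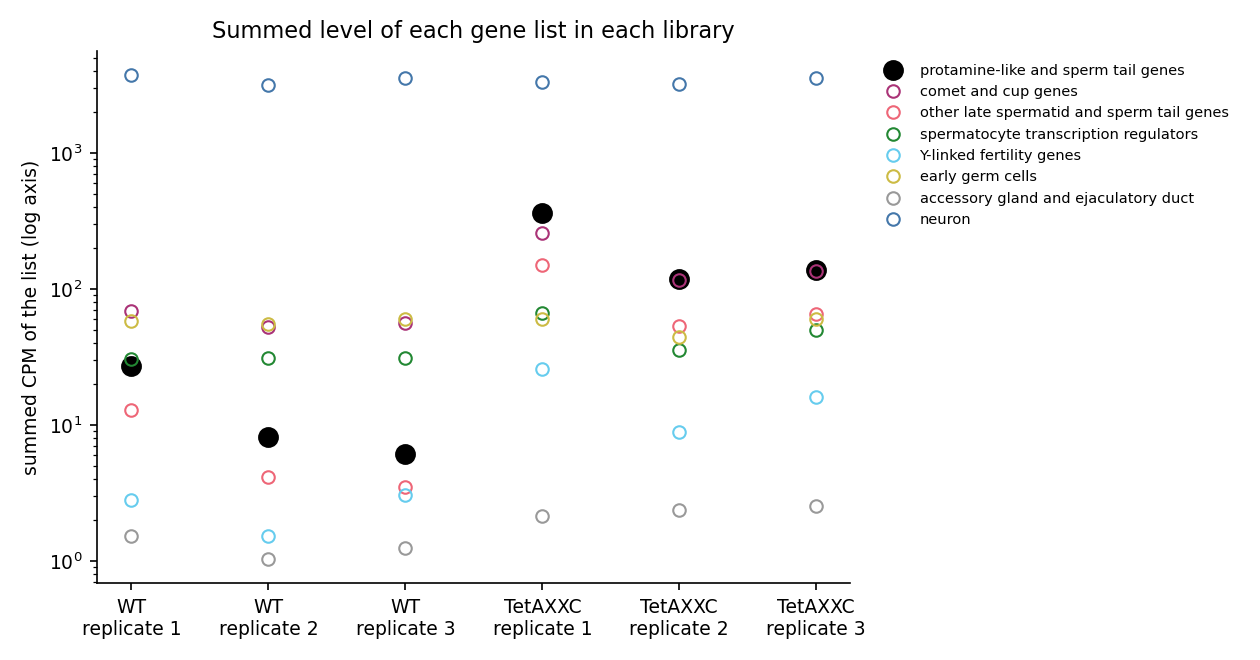
Summed CPM of each gene list in each library, on a log axis. The protamine-like and sperm tail genes (filled black) are at 6.08 to 27.2 CPM in WT and 118 to 361 CPM in TetAXXC, with the late spermatid lists highest in TetAXXC replicate 1 as well, while the neuronal list lies between 3153 and 3744 CPM and the accessory gland list between 1.04 and 1.53 CPM in WT and between 2.15 and 2.56 CPM in TetAXXC.

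The genes whose log2 CPM followed the mean of the 10 genes most closely over the 6 libraries were CG17377, Mst84Dd, CG33340, CG9920 and CG14355. Pearson's r rounded to 0.999 for each, and these points share library, depth and the 2 groups. Such a pattern was common, since 286 of the 11188 other genes tested had an r above 0.99 and 992 above 0.95. CG33340 had the highest counts of the 5, with 116, 38 and 27 for WT against 1746, 559 and 624 for TetAXXC.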

How the data were processed

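The authors deposited unnormalized gene-level read counts together with exon coordinates and exon length. The submitters' processing notes name Trimmomatic 0.39, HISAT2, SAMtools, featureCounts and DESeq2 and the builds BDGP6 and dm6. Other versions and the strand setting are not given in the sources used here. Libraries were grouped by their titles. Of 17807 genes, 17636 had the same span in the Release 6 annotation, including all 10 described here. Genes were filtered with filterByExpr (minimum count 10, minimum total 15), scaled by TMM, and tested for genotype with edgeR 4.0.16 (glmQLFit, glmQLFTest) in R 4.3.3. P-values were two-sided, adjusted by Benjamini-Hochberg over the 11198 genes tested, with a threshold of 0.05. limma 3.58.1 and DESeq2 1.42.0 were alternatives, and the scripts were tested on simulated data. CPM values were computed from the counts with TMM-adjusted library sizes, and standard errors from the coefficient and F statistic.

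The genes, their lists and the tests were chosen with earlier results of these data known. Named were all 10 genes, Tet, the Mst77Y copies, genes of 2 lists of sperm chromatin and tail genes, up to 3 genes with the smallest adjusted p of each other list, and the 5 genes most alike over the libraries. Genes at or near 0 and exceptions were named after their values were seen. Of 129 list symbols 2 were not matched to a single gene and were not used. The labels do not say that replicate numbers pair the libraries. Deviations from the group means over all genes tested correlated at 0.651, 0.381 and 0.296 between libraries of the same number. Between libraries of different number they correlated at -0.513 to 0.256. The highest of these, WT replicate 3 with TetAXXC replicate 2, was near the value of the replicate 3 libraries. The numbers were therefore treated as a possible pairing only, and a replicate block was run as an alternative. Replicates of a group differed by more than sampling noise (chi-square per degree of freedom 6.94 to 17.8), so each was counted as 1 sample.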

Additional observations from a re-analysis of the deposited data

How the results depend on the processing

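All log2 fold changes of the 10 genes stayed above 0 in every alternative. Of 98 values with all libraries kept, 88 also stayed under the threshold and 10 lost it, all 10 under limma-voom. Of 70 values with libraries left out, 47 stayed under it and 23 lost it. The number of the 10 genes past the threshold was 0 under limma-voom and ranged from 0 to 10 with a library left out. Over all genes it was 130 under limma-voom and 995 with the stricter filter of at least 50 counts in 3 libraries, which tests fewer genes (9075), against 1707. It was 2402 under the DESeq2 Wald test, and ranged from 54 without WT replicate 2 to 2095 without TetAXXC replicate 2. Why limma-voom called fewer was not tested. Under the replicate block, 2362 genes passed, and all 10 sperm genes stayed past the threshold with adjusted p from 1.36e-06 to 1.73e-04, so the block changed no call of the 10 genes. The other scalings, no filter, the robust fit and ProtA and ProtB summed as 1 gene (chosen after seeing the data) kept every call of the 10 genes. In WT 7 of 30 values of the 10 genes were under 10 counts, which limits the precision of each fold change.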

Other observations

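Some spermatocyte genes, and some genes of the early germ cell and Y-linked lists, were much lower in TetAXXC replicate 2 than in TetAXXC replicate 3. The genes in this paragraph were chosen after their values were seen. Summed, the 10 sperm genes were at 118 CPM in replicate 2 and 137 CPM in replicate 3, a ratio of 1.16. The spermatocyte regulators sa, topi, nht and aly had 2, 8, 2 and 3 counts in replicate 2 and 23, 39, 29 and 21 counts in replicate 3. The mitofusin gene fzo, which acts in early spermatids, had 48 and 244 counts, and the RNA-binding gene blanks had 31 and 251. In WT the highest counts of sa, topi, nht and aly were 1, 8, 3 and 4, and those of fzo and blanks 52 and 34. TetAXXC replicate 1 had the most counts of each, from 33 for nht to 560 for fzo. Other spermatocyte genes had nearly the same level in both, such as achi, at a CPM ratio of 1.01, and mia, at 0.985. Neither passed between genotypes, with log2 fold changes of 0.29 and -0.11. Among the spermatocyte products called higher the ratio was 1.64 for betaTub85D, 1.46 for Cyt-c-d and 1.43 for Hsp60B. For bol the ratio was 1.51, below that of ProtA (1.64) but above the 1.06 to 1.30 of the sperm genes other than ProtA and ProtB. In WT achi had 18.1 to 20.4 CPM, mia 5.89 to 6.72 CPM and bol 32.8 to 59.4 CPM. In the early germ cell list nos had 3 counts in TetAXXC replicate 2 and 20 in replicate 3, and the Y-linked PRY had 4 and 15. Of these 2 lists only otu, ORY and Pp1-Y1 were lower in replicate 3. The difference between replicates 2 and 3 rests on 1 library each and was not tested.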
